A study of Rattus norvegicus with 16 samples.

Results

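The macrophage genes described here are Cd163, Vsig4, Marco, Timd4, Adgre1, Clec4f, Lyz2, Cd68 and Csf1r, measured in the livers of ageing rats. They were chosen by name: every non-control probe of the array whose gene name was one of the 9, or Emr1, the older symbol of Adgre1. This gave 11 of 41012 probes, with 2 probes each for Cd163 and Csf1r and 1 for every other gene. All 9 genes were among the 21458 genes tested. Kupffer cells are the resident macrophages of the liver and sit in the lumen of the sinusoids, where they take up bacteria, dead cells and old erythrocytes from portal blood. They depend on signalling through the receptor Csf1r for survival, and carry scavenger and complement receptors on their surface. Macrophages derived from blood monocytes can also enter the liver and take on some of these genes.

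The livers came from male Lewis rats, an inbred strain, with food and water always at hand and lights on for 12 h a day, and no treatment is named. The ages were 3, 9, 12, 18 and 24 months, with 4 samples at 24 months and 3 at each other age, each on its own one-colour Agilent array of 60-base probes. The labels do not say that the samples are different animals, so the p-values measure the spread between these samples, which may be partly technical. A whole liver sample mixes cell types, so fewer macrophages and less RNA per macrophage cannot be told apart.

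The share of probes well above background ran from 52.5% to 65.2% over the arrays, and 0 spots were saturated. Precision is limited by how few arrays there are. The median SD of a gene was 0.132 to 0.288 at the later ages, against 0.084 at 3 months, on the log2 scale. Mean correlation with the other arrays of the same age was lowest for replicate 2 of 12 months (0.966) and for replicates 3 (0.974) and 4 (0.975) of 24 months. Arrays with the same scan time in the file headers were taken to share a slide, and the calendar year of the scan was taken as its period. By this reading the ages lay on 7 slides that were scanned on 3 days in 2 periods. Arrays of 24 and 3 months shared a scan period but no slide or day, those of 24 and 18 months shared none of them, and 9 months replicate 2 lay on the slide of the 3-month arrays. All 7 hepatocyte markers examined, among them Alb and Apoa1, were well above background on every array.

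The probes read the macrophage genes as follows, each sequence being the one given with the array, 5′ to 3′ in lower case with no part marked. Both Csf1r probes are shown because they disagree. The array pairs the Csf1r probe below background with 0 RefSeq transcripts, and whether it reads Csf1r was not tested. The Lyz2 probe is shown because the array pairs it with 2 RefSeq transcripts. The other Csf1r probe, that of Timd4 and both of Cd163 are also paired with 2. Marco, Adgre1 and Timd4 are shown because these genes differ in their pattern over age.
Csf1r, probe above background: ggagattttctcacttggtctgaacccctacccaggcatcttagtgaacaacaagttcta
Csf1r, probe below background: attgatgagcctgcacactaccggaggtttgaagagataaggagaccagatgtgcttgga
Lyz2: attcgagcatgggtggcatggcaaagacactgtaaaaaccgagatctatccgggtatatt
Marco: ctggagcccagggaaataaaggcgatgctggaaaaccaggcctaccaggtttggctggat
Adgre1: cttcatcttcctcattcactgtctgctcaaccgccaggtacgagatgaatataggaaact
Timd4: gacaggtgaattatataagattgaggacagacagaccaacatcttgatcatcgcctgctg
In the build named in the file headers (rn4), the array places the bright Csf1r probe at chr18:57105231-57105932 and the dim one at chr18:57061458-57061517, with 43714 bases between them. The Lyz2 probe is placed at chr7:56608440-56609236, Timd4 at chr10:31920640-31923594, Marco at chrUn:9449917-9450079 and Adgre1 at chrUn:64821266-64823251, where chrUn is sequence not placed on a chromosome. Whether the Lyz2 probe also reads a related lysozyme transcript was not tested.

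The dim Csf1r probe was well above background on 0 of 16 arrays, with a processed signal of 2.04 to 6.58 intensity units, so Csf1r is represented by its other probe. The 2 Cd163 probes were above background on all 16 arrays. They lay 0.76 to 1.68 apart on the log2 scale and ran alike over the 16 arrays (Pearson r = 0.94, a description over arrays that share age and slide). All other probes were above background on all 16 arrays, except that of Timd4, which missed this on 1 array of 18 months. Signals are given on the log2 scale with the array's 75th percentile as 0, so that 0 is the level of a probe brighter than 75% of all others, and levels of different probes are not compared.

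**Figure D1:**
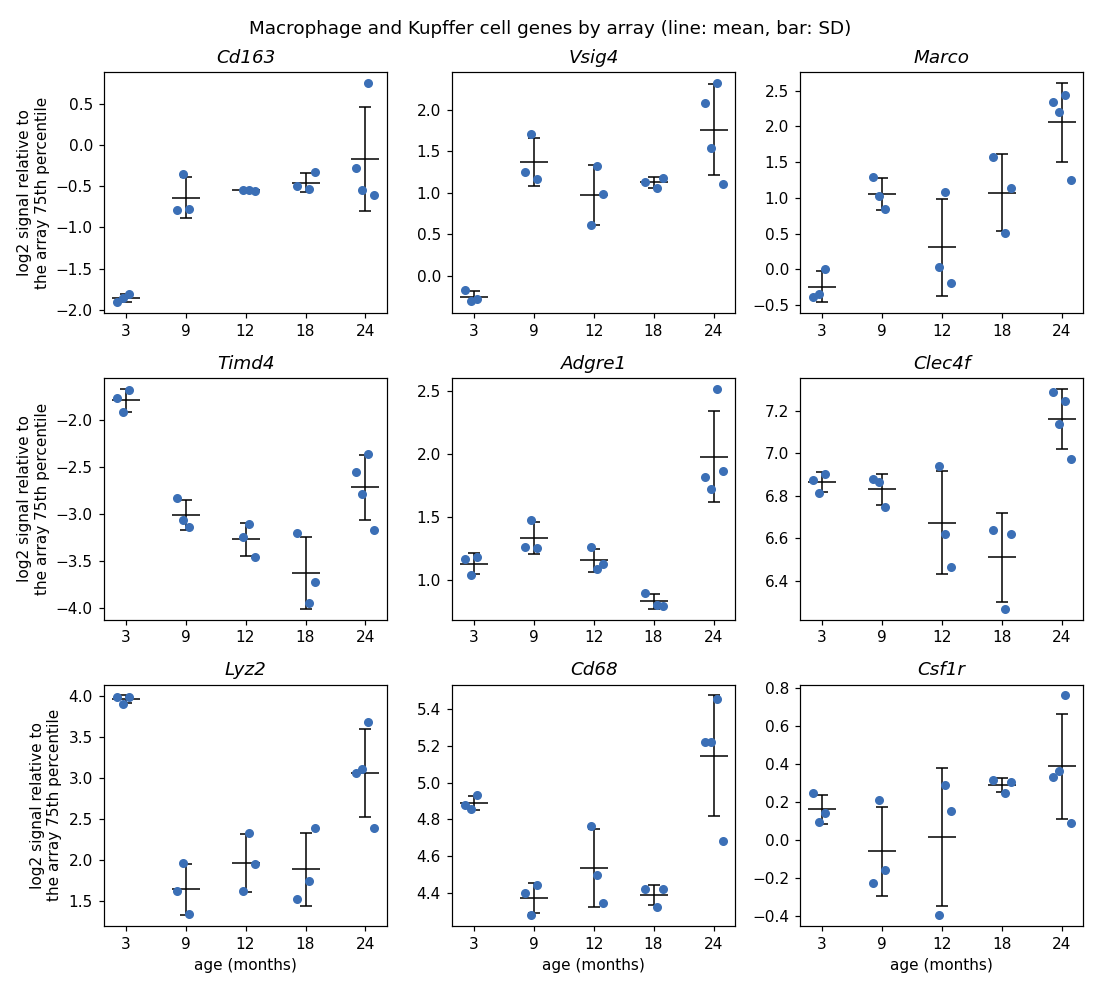
Log2 signal relative to the 75th percentile of the array (y axis) for each of the 9 genes at 3, 9, 12, 18 and 24 months (x axis), with a point for each array, a line for the mean and a bar for the SD (n = 4 at 24 months, n = 3 at the other ages). Cd163 and Vsig4 are lowest at 3 months on every array, Lyz2 and Timd4 are highest there, and Adgre1 and Clec4f have their highest arrays at 24 months.

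Over the 5 ages the genes followed different courses. The receptors Cd163, Vsig4 and Marco were lowest at 3 months and had their highest mean at 24 months. Lysozyme (Lyz2) and the phosphatidylserine receptor Timd4 were highest at 3 months and lower on every array of the later ages. Adgre1, Clec4f and Cd68 had their highest mean at 24 months, and Csf1r stayed within a narrow range. By limma's moderated F test for any age difference, 8 of the 9 genes passed at an adjusted p below 0.05, against 37.6% of all genes tested, and Csf1r did not (adjusted p = 0.221). The smallest adjusted p was that of Lyz2 (0.000266), followed by Timd4 (0.000302), Vsig4 (0.000625), Adgre1 (0.0011), Marco (0.00166) and Cd163 (0.00205). Cd68 (0.00546) and Clec4f (0.0165) passed with larger values.

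Among the receptors, Cd163 clears complexes of haemoglobin and haptoglobin. Its signal was -1.91, -1.85 and -1.81 on the 3-month arrays and -0.78, -0.34 and -0.78 at 9 months. At 12 months it was -0.54, -0.54 and -0.56, at 18 months -0.50, -0.53 and -0.33, and at 24 months -0.28, -0.54, 0.76 and -0.60. All 3-month arrays lay below all 13 others, while the later ages lay close to each other apart from 24 months replicate 3. In the order of the means (24, 18, 12, 9 and 3 months), the ranges of 18 and 12 months did not overlap by a small margin and those of 9 and 3 months did not overlap, while the others did.

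Vsig4 binds complement fragments on pathogens and dampens T cell activation. Its signal was -0.18, -0.30 and -0.28 at 3 months, 1.26, 1.71 and 1.17 at 9 months, and 0.61, 1.33 and 0.99 at 12 months. It was 1.13, 1.06 and 1.18 at 18 months and 2.08, 1.55, 2.33 and 1.10 at 24 months. The 3-month arrays again stood below all others, and the 4 later ages overlapped with their neighbours in order.

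Marco, a class A scavenger receptor for bacteria and particles, had the widest spread between arrays of an age. Its signal was -0.38, -0.35 and 0.01 at 3 months, 1.29, 1.02 and 0.84 at 9 months, and 0.03, 1.08 and -0.19 at 12 months. It was 1.57, 0.51 and 1.14 at 18 months and 2.35, 2.20, 2.44 and 1.25 at 24 months. Here 1 array of 12 months lay within the range of 3 months, and each neighbouring pair in the order of means (24, 18, 9, 12 and 3 months) overlapped.

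Timd4 binds phosphatidylserine on dying cells and marks long-lived resident macrophages in the mouse. Its signal was -1.77, -1.92 and -1.69 at 3 months, -2.83, -3.07 and -3.14 at 9 months, and -3.25, -3.11 and -3.46 at 12 months. It was -3.21, -3.95 and -3.72 at 18 months and -2.56, -2.79, -2.36 and -3.17 at 24 months. The 3 arrays of 3 months were the highest of the 16, and 24 months, the next in order, did not overlap with them.

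Adgre1 encodes an adhesion receptor used as a macrophage surface marker in rodents. Its signal was 1.17, 1.04 and 1.18 at 3 months, 1.26, 1.48 and 1.25 at 9 months, and 1.26, 1.09 and 1.12 at 12 months. It was 0.89, 0.80 and 0.79 at 18 months and 1.81, 1.72, 2.52 and 1.87 at 24 months. The 24-month arrays lay above all others and the 18-month arrays below all others.

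Clec4f, a galactose-binding C-type lectin made by Kupffer cells in rodents, had the narrowest course after Csf1r. Its signal was 6.87, 6.81 and 6.90 at 3 months, 6.88, 6.87 and 6.75 at 9 months, and 6.94, 6.62 and 6.46 at 12 months. It was 6.64, 6.27 and 6.62 at 18 months and 7.29, 7.14, 7.25 and 6.97 at 24 months. Every 24-month array lay above every other array, the closest being 12 months replicate 2.

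Lyz2 encodes lysozyme, which myeloid cells secrete to break down bacterial walls. Its signal was 3.98, 3.90 and 3.99 at 3 months, 1.61, 1.96 and 1.34 at 9 months, and 1.62, 2.32 and 1.94 at 12 months. It was 1.52, 1.74 and 2.38 at 18 months and 3.06, 3.11, 3.68 and 2.38 at 24 months. The 3-month arrays were the highest and no 24-month array reached them, while 9, 12 and 18 months overlapped.

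Cd68 is a glycoprotein of the lysosomal membrane of macrophages. Its signal was 4.88, 4.86 and 4.93 at 3 months, 4.40, 4.28 and 4.44 at 9 months, and 4.76, 4.50 and 4.35 at 12 months. It was 4.42, 4.33 and 4.42 at 18 months and 5.22, 5.22, 5.46 and 4.68 at 24 months. Both the youngest and the oldest group lay above 9 and 18 months, and they overlapped with each other.

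Csf1r, the receptor for the growth factors Csf1 and Il34, had a signal of 0.25, 0.10 and 0.14 at 3 months, -0.23, 0.21 and -0.16 at 9 months, and -0.39, 0.29 and 0.15 at 12 months. It was 0.32, 0.25 and 0.31 at 18 months and 0.33, 0.36, 0.76 and 0.09 at 24 months. The 2 ages farthest apart in mean were 24 months (0.39 ± 0.28, SD, n = 4) and 9 months (-0.06 ± 0.23, SD, n = 3).

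The comparison of 9 with 3 months asked what changed at the first step in age. Of the 9 genes, Vsig4 and Cd163 rose and Lyz2 and Timd4 fell, 4 of 9 in all, against 5.19% of all genes tested (1.84% higher and 3.35% lower at 9 months). Their median log2 change was -0.03, beside 0.03 over all genes. Lyz2 averaged 1.64 ± 0.31 at 9 months and 3.95 ± 0.05 at 3 months (SD, n = 3 each), 4.99-fold lower (log2 change -2.32 ± 0.30, SE, limma adjusted p = 0.000914). Vsig4 averaged 1.38 ± 0.29 at 9 months and -0.25 ± 0.07 at 3 months (SD, n = 3 each), 3.1-fold higher (1.63 ± 0.27, SE, limma adjusted p = 0.00378). Timd4 was 2.33-fold lower (limma adjusted p = 0.00572) and Cd163 2.33-fold higher (limma adjusted p = 0.0182), and both had 0 arrays of 9 months within the range of 3 months. Marco and Cd68 did not pass, with log2 changes of 1.29 (95% interval 0.50 to 2.08, limma adjusted p = 0.0603) and -0.51 (-0.88 to -0.15, 0.107), and their groups did not overlap. Overlap of groups is given here and below as a description only, without the share of all genes beside it. Adgre1, Clec4f and Csf1r had log2 changes of 0.20 (95% interval -0.17 to 0.58), -0.03 (-0.35 to 0.28) and -0.22 (-0.64 to 0.20).

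The array of 9 months that lay on the slide of the 3-month arrays, replicate 2, showed the same directions for the 4 genes, with 1.96 for Lyz2, 1.71 for Vsig4, -3.07 for Timd4 and -0.34 for Cd163. The call of Cd163 was lost when any single 3-month array, 9 months replicate 2 or 9 months replicate 3 was left out (limma adjusted p up to 0.0809). With normexp background correction it was lost too (0.243), as was that of Timd4, whose log2 change was then -0.44.

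Pan-leukocyte genes were lower at the same step. Of 9 measured pan-leukocyte genes 6 fell and 0 rose at 9 months, with a median log2 change of -1.17. Tyrobp, an adaptor of activating receptors, was 2.44-fold lower (limma adjusted p = 0.00104), the actin-binding Coro1a 3.74-fold (0.00765) and Arhgdib 2.25-fold (0.00617). The summed signal of 7 neutrophil markers, in multiples of the 75th percentile of an array, was 1.12 to 1.40 at 9 months and 15.6 to 18.3 at 3 months, and 2 and 5 of the markers were above background on all arrays of these ages. That of 7 T cell markers was 1.77 to 2.34 at 9 months and 5.98 to 6.35 at 3 months. Of the 3 B cell markers tested (Cd79a, Cd79b and Cd22) 0 were called by limma, and Cd22 had a log2 change of 0.57 in the other direction (adjusted p = 0.463). The part of these cells in the change of Lyz2, which neutrophils and monocytes also express, was not tested. The 6 Kupffer cell markers measured (Cd163, Vsig4, Marco, Timd4, Adgre1 and Clec4f) had a summed signal of 114.5 to 125.8 at 9 months and 116.6 to 124.5 at 3 months, to which Clec4f contributes most.

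Calls among other macrophage genes differed between the lists. Of all genes tested 5.19% were called at this step, 1.84% higher and 3.35% lower at 9 months. Of 19 measured Kupffer cell and resident macrophage genes beyond the 9, Fcna rose (2.03-fold, limma adjusted p = 0.0285), and the iron exporter Slc40a1 (1.44-fold, 0.0128) and the transcription factor Spi1 (2.25-fold, 0.0389) fell. Fcna encodes ficolin A, a lectin of the complement system. Of 12 monocyte and recruited macrophage genes 5 fell: Lgals3 (2.75-fold, limma adjusted p = 0.00649), Gpnmb (3.95-fold, 0.0373), Plac8 (6.47-fold, 0.000437), Fcgr3a (3.31-fold, 0.00631) and Ly6c (7.98-fold, 0.00259). Of 13 activation genes 3 fell, the receptors Tlr2 (1.85-fold, 0.0142) and Tlr4 (2.86-fold, 0.000386) and the chemokine Ccl3 (4.72-fold, 0.0314). Of 14 lysosomal genes Ctsz fell (2.04-fold, 0.0361) and the acid phosphatase Acp5 rose (1.76-fold, 0.00917). Of 6 inhibitory receptor and ligand genes 4 fell: Cd47 (1.45-fold, 0.0248), Cd200r1 (1.99-fold, 0.00686), Clec4a1 (2.7-fold, 0.00284) and Clec4a3 (2.82-fold, 0.000448). Of 4 measured genes of the colony-stimulating factor axis Spi1 alone was called, and of 14 scavenger and efferocytosis genes 0 were.

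The steps of 12 against 9 months and of 18 against 12 months asked what changed in mid-life. By limma 0 of the 9 genes passed at either step, against 6.31% of all genes at 12 against 9 months (3.27% higher and 3.04% lower) and 1.34% at 18 against 12 months (1.03% higher and 0.308% lower), and 0 of the 9 had an unadjusted p below 0.05. The largest differences were those of Marco, with log2 changes of -0.74 at 12 against 9 months (95% interval -1.53 to 0.05, limma adjusted p = 0.246) and 0.77 at 18 against 12 months (-0.02 to 1.56, 0.282). For the other 8 genes the changes ran between -0.40 (Vsig4) and 0.32 (Lyz2) at 12 against 9 months, and between -0.36 (Timd4) and 0.27 (Csf1r) at 18 against 12 months. The 12-month arrays spread widely for Marco (SD 0.68), Vsig4 (SD 0.36) and Csf1r (SD 0.36), and replicate 2 was the lowest of them for Vsig4 and Csf1r. Among the related lists 1 gene was called at these steps, the efferocytosis receptor Mertk (1.91-fold higher at 12 than at 9 months, limma adjusted p = 0.0393).

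**Figure D2:**
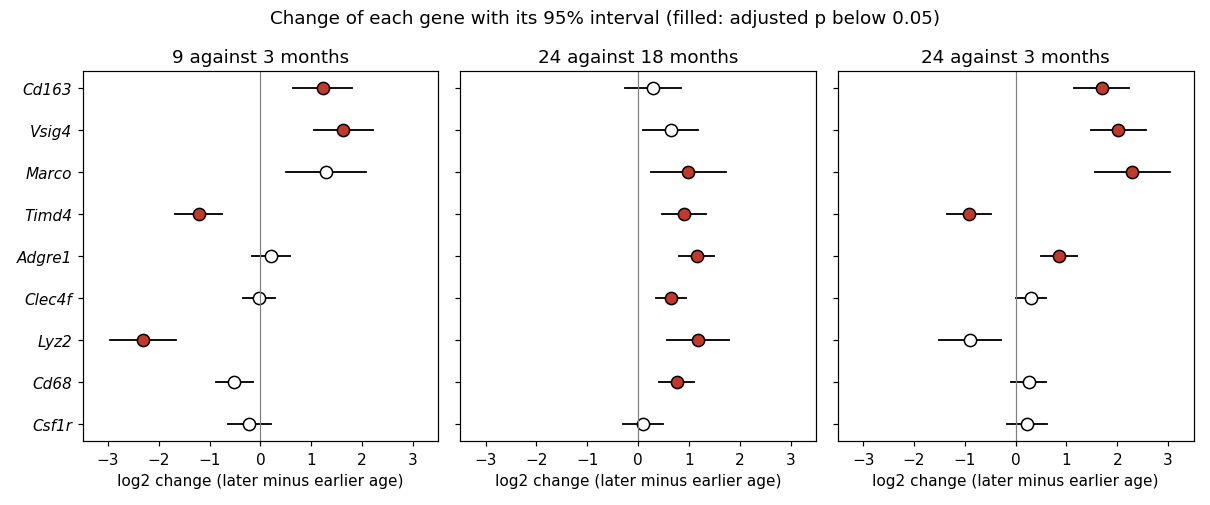
Log2 change (x axis, later minus earlier age) of each of the 9 genes (rows) with its 95% interval, for 9 against 3, 24 against 18 and 24 against 3 months. Filled points passed at an adjusted p below 0.05: 4, 6 and 5 genes, with all 6 called changes at 24 against 18 months above 0.

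The comparison of 24 with 18 months asked what changed at the last step. Of the 9 genes 6 rose and 0 fell, Adgre1, Cd68, Clec4f, Lyz2, Marco and Timd4, against 11.1% of all genes higher and 14.9% lower at 24 months (26.0% called in either direction). The median log2 change of the 9 was 0.76, beside 0.05 over all genes. Adgre1 averaged 1.98 ± 0.36 (SD) over the 4 arrays of 24 months, against 0.83 ± 0.06 over the 3 of 18 months, and was 2.22-fold higher (log2 change 1.15 ± 0.16, SE, limma adjusted p = 0.000193). Lyz2 was 2.26-fold higher (limma adjusted p = 0.00743), Timd4 1.88-fold (0.00472), Cd68 1.69-fold (0.00329) and Clec4f 1.57-fold (0.00323). The arrays of the 2 ages did not overlap for Adgre1, Timd4, Cd68 and Clec4f, while for Lyz2 24 months replicate 4 and 18 months replicate 4 both stood at 2.38. The share of all genes without overlap is not given, so these separations are a description only. Marco was 1.98-fold higher (limma adjusted p = 0.0494), and its groups overlapped. Vsig4, Cd163 and Csf1r did not pass, with log2 changes of 0.64 (95% interval 0.09 to 1.19), 0.29 (-0.26 to 0.84) and 0.10 (-0.30 to 0.49).

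No slide, scan day or scan period held both ages, so that these and age cannot be told apart directly. Only the 12-month arrays lay in both scan periods, replicate 2 with 24 months and replicates 3 and 4 with 18 months. A fitted period effect rests on replicate 2 against replicates 3 and 4, and replicate 2 had the lowest mean correlation with its age (0.966). With scan period as a fixed block, Adgre1 alone passed. The log2 changes were then 1.69 for Lyz2 (limma adjusted p = 0.0515), 1.40 for Marco (0.174) and 0.87 for Timd4 (0.154), and smaller than without the block for Cd68 (0.41, 0.34) and Clec4f (0.25, 0.458). With slide as a random block, too, Adgre1 alone passed, while the log2 changes were 1.17 for Lyz2, 0.93 for Marco, 0.90 for Timd4, 0.74 for Cd68 and 0.64 for Clec4f. Adgre1 passed in 28 of 28 settings (limma adjusted p up to 0.0497). The call of Marco held in 7 of 28 other settings and was lost, for example, without 18 months replicate 3 (log2 change 0.70, limma adjusted p = 0.215). Without 24 months replicate 4, Vsig4 passed as well (0.86, 0.0104).

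Pan-leukocyte genes and cholangiocyte markers rose beside the macrophage genes at this step. Of 9 pan-leukocyte genes 7 rose and 0 fell, with a median log2 change of 1.28, among them Arhgdib (2.45-fold, limma adjusted p = 0.000324), Fcer1g, a signalling chain of Fc receptors (2.87-fold, 0.000426), and Coro1a (4.36-fold, 0.000432). The summed signal of T cell markers was 7.25 to 20.6 at 24 months and 2.90 to 3.46 at 18 months, with 5 and 4 of 7 markers above background on all arrays. That of neutrophil markers was 1.59 to 55.3 at 24 months and 1.33 to 3.37 at 18 months, with 2 and 3 of 7 markers above background on all arrays. Of the 5 neutrophil markers tested 0 rose and 1 fell, Mpo, named after its values were seen, which was well above background on 0 arrays of 24 months and at least 2.09-fold lower there (limma adjusted p = 0.0012). The median log2 change of these 5 markers was 1.15. Of the 6 T cell markers tested 5 rose and 0 fell, with a median log2 change of 2.40. Of the 3 B cell markers tested 1 rose and 1 fell. Of 5 cholangiocyte markers 4 rose and 0 fell, with a median log2 change of 1.26, and 1 of them, Spp1, is also in the monocyte list. Their summed signal was 3.19 to 4.84 at 24 months and 1.84 to 2.16 at 18 months, with 4 of 5 markers above background on all arrays of each age. The summed Kupffer cell markers were at 134.7 to 170.2 at 24 months and 83.1 to 107.5 at 18 months. Those of sinusoidal endothelial cells were at 85.0 to 111.3 at 24 months and 95.9 to 112.4 at 18 months. Of the 7 endothelial markers 2 rose and 0 fell, with a median log2 change of 0.21. Over all genes 11.1% were called higher and 14.9% lower. The part of the other cell types in the changes was not tested.

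Of the 19 Kupffer cell and resident macrophage genes 8 rose and 0 fell at 24 against 18 months. Among them were the folate receptor Folr2 (1.59-fold, limma adjusted p = 0.0127), the Fc receptor Fcgr1a (1.63-fold, 0.0145) and the metal transporter Slc11a1 (2.0-fold, 0.0201). Of 12 monocyte and recruited macrophage genes 8 rose, with Fcgr3a 2.78-fold (0.00217) and the elastase Mmp12 3.77-fold higher (0.00341, with 2 of 3 arrays of 18 months above background). The chemokine receptor Ccr2 was not well above background on any 18-month array and was on 3 of 4 at 24 months, at least 1.57-fold higher there (0.00108). That bound sets the 24-month mean against the lowest well-above-background signal of each 18-month array. Of 13 activation genes 7 rose, with Tlr2 2.33-fold (0.000216), the chemokine Ccl4 8.54-fold (0.000561) and the costimulatory receptor Cd40 1.84-fold higher (0.0021). Of 14 scavenger and efferocytosis genes Msr1 (1.6-fold, 0.0426), Stab2 (1.78-fold, 0.017) and Cd93 (1.58-fold, 0.0455) rose. The 3 calls among these 14 genes, and the 3 among the 14 lysosomal genes, are not above the 26.0% of all genes called at this step. Of the lysosomal genes Grn (1.38-fold, 0.0252) and Laptm5 (2.42-fold, 0.000943) rose and the cholesterol transporter Npc1 fell (1.78-fold, 0.00571). Of 6 inhibitory genes Cd200r1 (1.41-fold, 0.0453), Clec4a1 (1.71-fold, 0.0165) and Clec4a3 (1.89-fold, 0.00107) rose. Of 4 genes of the colony-stimulating factor axis 0 were called.

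The comparison of 24 with 3 months spans the widest gap in age. Vsig4, Marco, Cd163 and Adgre1 rose and Timd4 fell, 5 of 9 genes, against 13.5% of all genes tested (4.17% higher and 9.30% lower at 24 months). The median log2 change of the 9 was 0.30, beside -0.05 over all genes. Marco averaged 2.06 ± 0.55 (SD) over the 4 arrays of 24 months, against -0.24 ± 0.22 over the 3 of 3 months, and was 4.92-fold higher (log2 change 2.30 ± 0.34, SE, limma adjusted p = 0.000717). Vsig4 was 4.05-fold higher (limma adjusted p = 0.000233), Cd163 3.23-fold (0.000749) and Adgre1 1.8-fold (0.00375). As a description, without the share of all genes, the arrays of the 2 ages did not overlap for these genes. Timd4 averaged -2.72 ± 0.35 (SD) over the 4 arrays of 24 months, against -1.79 ± 0.12 over the 3 of 3 months, and was 1.9-fold lower (-0.92 ± 0.20, SE, limma adjusted p = 0.0083). Lyz2 had a log2 change of -0.90 (95% interval -1.50 to -0.29) and did not pass (limma adjusted p = 0.0501). It passed in 8 of 28 other settings, among them without 24 months replicate 3 (-1.11, 0.014). Clec4f, Cd68 and Csf1r had log2 changes of 0.30 (95% interval 0.00 to 0.59), 0.26 (-0.08 to 0.60) and 0.23 (-0.17 to 0.62).

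The dimmer probe of Cd163 gave the same direction in its own test, 2.41-fold higher at 24 than at 3 months (limma adjusted p = 0.0114 over all probes) and 1.95-fold at 9 against 3 months (0.0993). With slide as a random block, Vsig4, Cd163 and Adgre1 passed between 24 and 3 months, and Marco (2.16, limma adjusted p = 0.106) and Timd4 (-0.97, 0.227) did not. The call of Timd4 was also lost with normexp (-0.11, 0.836).

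Among related genes between 24 and 3 months, of the 19 Kupffer cell and resident macrophage genes, the 4 of the colony-stimulating factor axis and the 9 pan-leukocyte genes, 0 were called by limma, with median log2 changes of -0.06, -0.13 and 0.14. The scavenger receptor Stab2 rose (2.72-fold, limma adjusted p = 0.00112), 1 of 14 genes of its list, and it is also a marker of sinusoidal endothelial cells. Of 12 monocyte and recruited macrophage genes Mmp12 rose (4.34-fold, 0.00365), with 1 of 3 arrays of 3 months above background, and Plac8 (3.1-fold, 0.00249) and Ly6c (5.23-fold, 0.00282) fell. Of 13 activation genes the cytokine Il1b rose (3.14-fold, 0.000821) and Tlr4 fell (1.83-fold, 0.00301). Acp5 rose (2.21-fold, 0.000277), 1 of 14 lysosomal genes. The calls in the scavenger and lysosomal lists are below the 13.5% of all genes called here. Those in the activation list are near that share. Of 6 inhibitory genes Cd47, the ligand that restrains phagocytosis, fell (1.81-fold, 0.000403), as did Cd200r1 (1.72-fold, 0.00843). The summed neutrophil markers were at 15.6 to 18.3 at 3 months. At 24 months they were at 55.3 on replicate 3, and at 12.3, 3.20 and 1.59 on replicates 1, 2 and 4. Of the 5 neutrophil markers tested 2 fell and 0 rose, with a median log2 change of -1.15. The summed T cell markers were at 7.25 to 20.6 at 24 months and 5.98 to 6.35 at 3 months. Of the 6 T cell markers tested 2 rose and 0 fell.

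**Figure D3:**
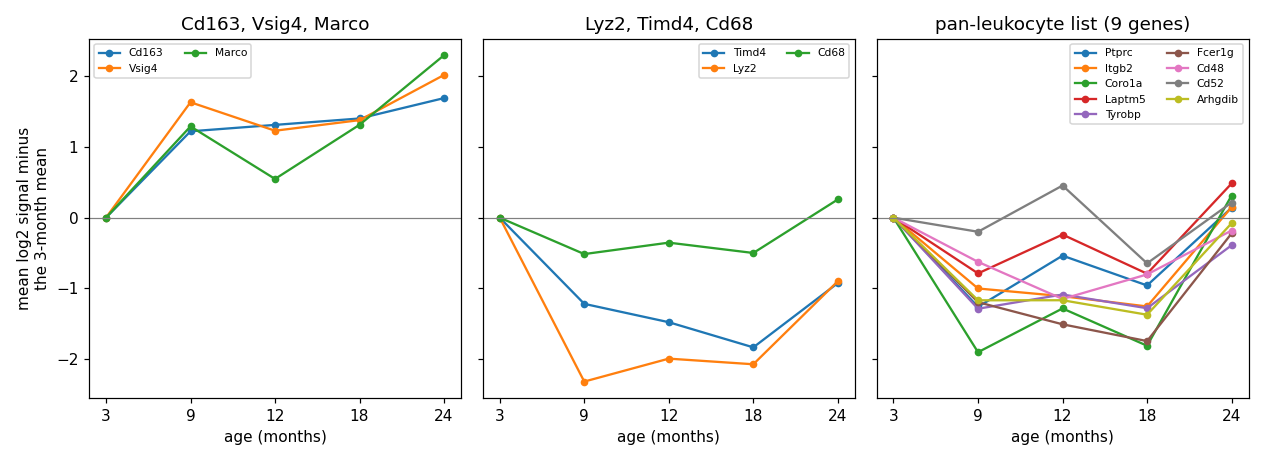
Mean log2 signal minus the 3-month mean (y axis) at each age in months (x axis), for Cd163, Vsig4 and Marco, for Lyz2, Timd4 and Cd68, and for the 9 measured pan-leukocyte genes. The first panel lies above 0 at all later ages, Lyz2 and Timd4 lie below 0 at all later ages, and all 9 pan-leukocyte genes lie below 0 at 9 months.

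The 4 arrays of 24 months differed among themselves across all 9 genes. Replicate 3 lay above the 24-month mean for 9 of 9 genes and replicate 4 for 0 of 9, with median deviations of 0.38 and -0.45 on the log2 scale. Replicates 1 and 2 lay above it for 6 and 3 genes. Replicate 3 also had the highest summed neutrophil signal (55.3, against 12.3, 3.20 and 1.59 on replicates 1, 2 and 4) and T cell signal (20.6, against 7.25, 16.6 and 7.64). Replicates 3 and 4 each lay on a slide of their own. Replicate 4 had the fewest probes above background (52.5%). Its 75th percentile was 181.4 intensity units, against 304.2 to 376.9 on the other arrays of 24 months. A setting chosen after seeing the data left out both of these arrays and 12 months replicate 2. It kept only replicates 1 and 2 of 24 months. Then 7 of the 9 genes passed between 24 and 3 months, 7 between 24 and 18 months and 6 between 9 and 3 months. Over all 21458 genes the calls at these comparisons rose too, from 2890, 5579 and 1113 to 5113, 7572 and 3162.

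**Figure D4:**
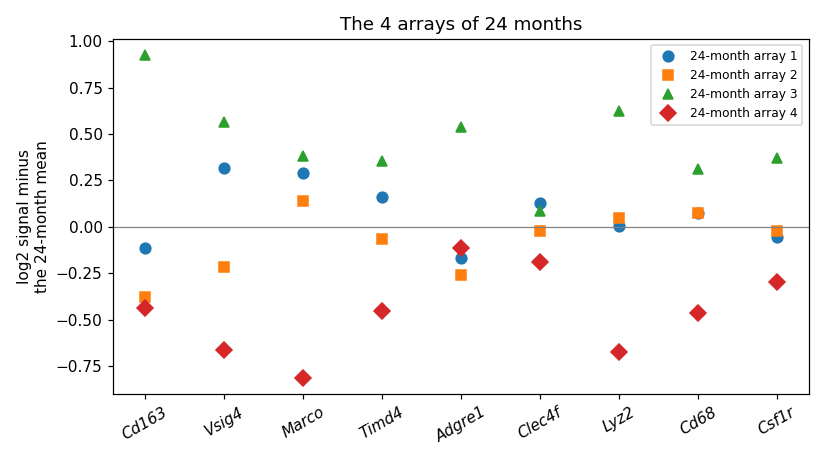
Log2 signal minus the 24-month mean (y axis) for each of the 9 genes (x axis) on the 4 arrays of 24 months. The points of array 3 lie above 0 for all 9 genes and those of array 4 below 0.

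As a description, likeness between genes was measured by Pearson r over the 16 arrays, which share age, slide and scaling, among 9534 genes with a symbol that were above background on all arrays. Cd163 and Vsig4 ran closely together (r = 0.92), and each was among the 3 genes most like the other. The other genes most like Vsig4 were the water channel Aqp1 (0.93) and Stab2 (0.91), and those most like Cd163 were Gss (0.93) and Anxa10 (0.89). Lyz2 was most like Msn (0.97), Fxyd5 (0.97) and Ifit1bl (0.96), and Cd68 most like Nt5c (0.95), Hk1 (0.95) and the sterol exporter Abcg1 (0.95). Adgre1 was most like Cfp (0.94), which encodes properdin of the complement system, Lpcat2 (0.92) and Ccni (0.91). Clec4f was most like Gprasp1 (0.93), Phldb1 (0.93) and Zfp628 (0.92), Marco most like Zfp148 (0.92), Resp18 (0.90) and H19 (0.89), and Csf1r most like Nfkb2 (0.91), Rad9a (0.89) and Dcn (0.89). Timd4 and Lyz2 had r = 0.84, while Timd4 had r = -0.55 with Cd163 and -0.44 with Vsig4. After the mean of each age was subtracted, Timd4 had r = 0.49 with Cd163 and 0.60 with Vsig4, pooled over the 5 ages. The r of every other pair of the 9 genes was then positive too, except that of Clec4f with Csf1r (-0.11). These values include replicates 3 and 4 of 24 months, which lay above and below the mean of that age for all 9 genes.

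Vsig4 and Cd163 had the highest r over the 16 arrays of any pair of the 9 genes. After the mean of each age was subtracted, their r was 0.75, below the 0.91 of Cd163 with Adgre1. Their promoters and that of Csf1r are shown as the 250 bases before the gene start from RefSeq (build GRCr8, not that of the probes). They were searched on both strands for GAGGAA, the core of sites bound by the macrophage transcription factor PU.1, the product of Spi1, which reads TTCCTC on the other strand. Capitals mark matches, which cannot overlap.
Vsig4, chrX:65179709-65179958, minus strand: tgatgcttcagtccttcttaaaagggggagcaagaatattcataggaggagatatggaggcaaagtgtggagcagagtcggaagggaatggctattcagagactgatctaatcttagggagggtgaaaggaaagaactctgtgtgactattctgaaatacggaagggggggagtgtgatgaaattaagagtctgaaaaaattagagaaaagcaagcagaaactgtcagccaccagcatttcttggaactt
Cd163, chr4:158770524-158770773, plus strand: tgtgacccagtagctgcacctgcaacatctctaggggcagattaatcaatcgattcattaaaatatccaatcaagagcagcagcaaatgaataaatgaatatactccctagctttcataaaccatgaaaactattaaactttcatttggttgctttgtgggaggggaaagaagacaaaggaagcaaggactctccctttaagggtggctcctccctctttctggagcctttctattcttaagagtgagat
Csf1r, chr18:56834129-56834378, plus strand: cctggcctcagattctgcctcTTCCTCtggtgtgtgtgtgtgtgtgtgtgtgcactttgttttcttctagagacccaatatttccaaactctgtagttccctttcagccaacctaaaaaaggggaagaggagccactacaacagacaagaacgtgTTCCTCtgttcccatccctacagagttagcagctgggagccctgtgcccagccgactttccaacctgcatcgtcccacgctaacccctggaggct
All 9 genes matched a promoter by symbol. The motif was found in 5 of the 9 windows, those of Marco, Adgre1, Lyz2, Cd68 and Csf1r, and in 23.3% of all 33469 promoters of the same length. Csf1r held 2 matches and the other 4 genes 1 each.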

How the data were processed

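Per the file headers, Feature Extraction 10.7.3.1 wrote the intensity columns (processed, mean and local background signal), which carry no scaling between arrays. The flags for background, saturation and outlier spots are other columns, per the file headers. A deposited value table on the log2 scale, whose normalization is not given in the sources used here, served only as an alternative. Per the labels' protocols the kit named for labelling is meant for microRNA while the probes read mRNA, which was not resolved.

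Each array's processed signals were put on the log2 scale less their 75th percentile, outlier spots were set to missing, and spots of a probe averaged. A probe was kept if every array of some age had it well above background (25698 of 41012), and the brightest kept probe stood for its gene. Names came through accessions in RefSeq for 18028 probes and otherwise from the files. A mean per age was fitted over all 16 arrays and 21458 genes with limma 3.58.1 (R 4.3.3), two-sided, with Benjamini-Hochberg adjustment over all genes and a threshold of 0.05. Adjusted p-values in brackets come from that fit. The members, lists and tests were chosen with earlier results of these data known. Genes named from the related lists are those with the smallest adjusted p among called genes, up to 4 for 24 against 3 months and up to 3 for a step, and every called gene where 5 or fewer passed. The fit was tested on simulated data with independent arrays, an equal spread at all ages and no slide effect. It called 38% to 53% of simulated 2-fold changes and 87% to 94% of 4-fold changes, depending on the comparison. Calls among unchanged genes numbered 2 to 14. Figures used matplotlib 3.10.9. Alternatives are given in the closing section. The summed B cell markers are not reported here.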

Additional observations from a re-analysis of the deposited data

How the results depend on the processing

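Of the 9 genes 5 were called between 24 and 3 months, 3 with slide as a random block and 3 at a change of at least 2-fold. Between 9 and 3 months 4 were called, and 2 with normexp. Between 24 and 18 months 6 were called, 1 with normexp, 1 with slide as a random block, 1 with scan period as a block and 2 at 2-fold or more. By the F test 8 were called, and 5 with normexp. Leaving out each array in turn gave 5 to 6, 3 to 6, 5 to 7 and 8 to 8 genes, and 0 at the other steps. Deviations from the age means correlated no more between arrays of the same replicate number (-0.367 to 0.183, median -0.085, 25 pairs) than of different numbers (-0.355 to 0.324, median 0.033, 77 pairs). This comparison cannot show that the numbers carry no pairing. With a replicate block 5, 4, 5 and 8 genes were called, and over all genes 2127 between 24 and 3 months, 367 between 12 and 9 and 91 between 18 and 12 months.

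Over all genes, 2890 calls between 24 and 3 months became 492 with normexp, 315 with slide and 1569 at 2-fold. Those between 9 and 3 months (1113) became 350, 2044 and 654, those between 12 and 9 months (1353) 165, 4820 and 580, and those between 24 and 18 months (5579) 1006, 962 and 2878. The 288 between 18 and 12 months became 37 with normexp and 0 with slide, and the 8078 of the F test 1640 and 4787.

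Between 24 and 3 months, the resident macrophage list had 1 call with quantile normalization and 1 with the series table (0 otherwise). With slide as a block the monocyte list had 0 calls (3 otherwise), the activation list 1 (2), the lysosomal list 0 (1) and the inhibitory list 1 (2). With normexp these last 3 lists had 1, 0 and 1, and at 2-fold the activation and inhibitory lists had 1 and 0.

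Values that changed sign, of which 0 were called, were as follows. With normexp, Timd4 was at 0.10 for 12 against 9 months, Cd68 at -0.0755 for 24 against 3 and Csf1r at -0.0247 for 24 against 18. For 12 against 9 months, Clec4f was at 0.0230 with slide as a block, 0.11 with scan period and within scan day 1, and 0.13 within slide 2. Csf1r was there at -0.13, -0.33 and -0.20, Lyz2 at -0.0186 with scan period and within day 1, and Adgre1 at 0.0043 within slide 2. For 9 against 3 months, Csf1r was at 0.0127 with slide and 0.0470 within slide 1, and Clec4f at 0.00158 within slide 1. Vsig4 was at -0.0319 for 18 against 12 months with scan period, within day 2 and without 12 months replicate 2, 24 months replicate 3 and 24 months replicate 4 together, a setting chosen after seeing the data. Without each array in turn, Cd163 ran from -0.0202 to 0.434 for 24 against 18 months, Vsig4 from -0.0319 to 0.326 for 18 against 12, Clec4f from -0.0582 to 0.00919 for 9 against 3, Csf1r from -0.0611 to 0.282 for 12 against 9 and from -0.0277 to 0.195 for 24 against 18, and Lyz2 from -0.33 to 0.102 for 18 against 12. The cause of these changes was not tested.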

Other observations

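The summed signal of 2 erythroid markers stood highest on 12 months replicate 2 (41.5) and 24 months replicate 3 (33.2), in multiples of the 75th percentile, against 6.53 to 16.7 on the other 14 arrays. The summed signal of 7 hepatocyte markers was lowest on 24 months replicate 3.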
